A study of Mus musculus with 8 samples.

Results

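Egr1, Egr2, Egr3, Nr4a1, Nr4a2, Nr4a3, Ier2, Ier3, Btg2 and Myc, 10 immediate early genes, were compared between the livers of METTL3-HKD and METTL3-Flox mice after ischemia and reperfusion. They are the rows that carry these symbols among the 54532 genes listed, and each symbol was found in 1 row. In all 8 mice, part of the liver was clamped for 1 h and reperfused for 6 h, and RNA of whole liver was sequenced. The 4 METTL3-HKD mice had the genotype METTL3 flox/- with Alb-iCre, in which the albumin promoter drives Cre recombinase in hepatocytes. The 4 METTL3-Flox mice came from the same litters and had the genotype METTL3 flox/flox, for which no Cre is given. The floxed exon of METTL3 is exon 4. The study describes METTL3-HKD as a knockdown specific to hepatocytes. What the minus allele means for METTL3 in hepatocytes and in other cells of the liver is not spelled out there. The METTL3 allele and the Cre transgene differ together between the groups, so their parts cannot be told apart. Livers without ischemia were not analysed here, so the values compare 2 injured groups and give no change from an uninjured liver. The age and sex of these mice are not given in the sources used here.

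Immediate early genes are transcribed within minutes of a signal, from factors that the cell already holds. Serum response factor and its Ets partners relay MAPK signals to CArG boxes in their promoters, and CREB relays cAMP and kinase signals to cAMP response elements. Most of their transcripts decay quickly once the signal ends. Egr1, Egr2 and Egr3 encode zinc finger transcription factors, and Nr4a1, Nr4a2 and Nr4a3 encode orphan nuclear receptors that need no ligand. Btg2 is an antiproliferative partner of the deadenylase complex, Ier3 a stress and survival protein, Ier2 a small nuclear protein, and Myc a driver of growth and ribosome biogenesis. In liver these genes are known for their response to partial hepatectomy, to reperfusion and to inflammatory signals.

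Mettl3 itself was measured first. METTL3-HKD livers 1 to 4 held 1.56, 1.39, 1.17 and 1.20 FPKM, and METTL3-Flox livers 1 to 4 held 1.84, 1.16, 1.45 and 1.54 FPKM, where FPKM are fragments per kilobase of gene length, scaled for library size. The groups overlapped, with 1.33 ± 0.181 against 1.50 ± 0.282 FPKM (SD, n = 4 each), a log2 fold change of -0.16 (limma adjusted p = 0.556). The study calls METTL3-HKD mice heterozygous and reports reduced METTL3 in their livers. It used them because mice with a full knockout in hepatocytes died early. Whether the second allele, written as a minus, is deleted or wild type is not spelled out there. A level summed over the whole gene, in tissue that also holds cells other than hepatocytes, does not check the loss of exon 4. The gene also shares 933 exon bases with Tox4 on the opposite strand. Depth lay between 15861245 and 18434488 reads on genes per liver. The 10 hepatocyte markers summed to 22821 to 33753 FPKM in METTL3-HKD and 29676 to 34389 FPKM in METTL3-Flox livers, and Alb, serum albumin, was the most abundant of them in both groups.

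All 10 genes were higher in METTL3-HKD mice, and in none of them did the livers of the 2 groups overlap. Each also had an adjusted p below 0.05 with a change of 1 or more on the log2 scale (limma on log2(FPKM + 0.1), two-sided, Benjamini-Hochberg over 16645 genes), which is what upregulated means below. By these thresholds 4.7% of all tested genes were upregulated, 782 in number, against 253 downregulated (1.52%), and in 12.7% of all tested genes the groups were likewise apart, with the METTL3-HKD livers on top. The number upregulated fell to 492 without METTL3-HKD liver 1 and to 519 without METTL3-Flox liver 3. The exact permutation test over the 70 arrangements of the livers gave p = 0.0286 for each of the 10 genes (two-sided), the smallest p that 4 against 4 livers allow. The log2 fold changes ran from 1.02 for Ier2 to 4.24 for Ier3 with a median of 2.14, beside a median of -0.00 over all genes tested. Ier3 ranked 43 and Ier2 ranked 1235 of the 16645 log2 fold changes. For Egr2, Egr3, Nr4a2 and Nr4a3 the mean of the METTL3-Flox livers was under the minimum of 0.1 FPKM used to select genes for testing, so these 4 entered the test only through the METTL3-HKD livers. The deposited values were already scaled between libraries. Scaled to the reads on genes instead, the median of all genes moved by 0.20, the share of upregulated among all called genes went from 75.6% to 88.7%, and the 10 log2 fold changes ran from 1.23 to 4.45.

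**Figure D1:**
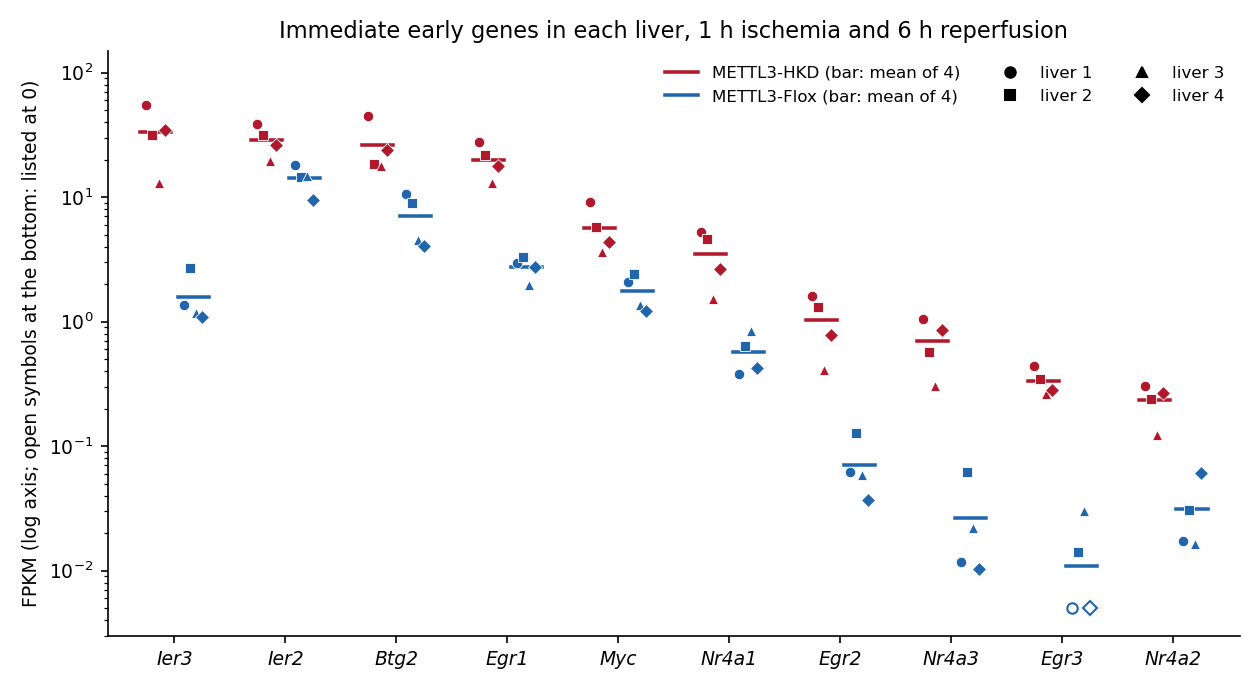
FPKM of the 10 genes (log axis) in each of the 4 METTL3-HKD livers (red) and the 4 METTL3-Flox livers (blue), with the group mean as a bar and the liver number as the symbol. No red symbol lies as low as a blue symbol of the same gene. The narrowest gap is that of Ier2, 19.5 against 18.1 FPKM, and the open symbols mark the METTL3-Flox livers 1 and 4, in which Egr3 is listed at 0.

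Promoter windows from RefSeq on GRCm38.p6, 250 bases before to 50 bases after a start, were at hand for Btg2, Egr2, Ier3, Nr4a1, Nr4a2 and Nr4a3, 6 of the 10. Egr2 has 5 windows, for its alternative starts, and each other gene has 1. They were searched on both strands. The cAMP response element TGACGTCA was found in Btg2, against 3.34% of 10978 tested genes with a window. Its core TGACG, which also lies inside the full element, was found in 5 of 6 against 33.6%. The CArG box was found in Egr2 alone, against 1.64% of genes, and the EGR site (GCGTGGGCG or GCGGGGGCG) in Nr4a1 alone, against 7.21%. TATAAA was found in Nr4a2 alone, against 9.86%. The kappaB site of NF-kB was found in Egr2 and Nr4a1, against 8.26%, and CACGTG, the E-box of Myc, in Egr2 alone, against 11.5%. Both matches of Egr2 lie in a window other than the one shown. The AP-1 site (TGACTCA or TGAGTCA) was in 0 of 6, against 5.15%, and so was AAAGGTCA, the site of the Nr4a receptors, against 1.49%. The Ets core GGAA was in 6 of 6, as in 96.5% of genes. A match is no evidence of binding, and no match says only that these letters are not in the window. The 4 windows below hold no annotated exon and are shown because their members differ in which of these letters they carry. They run 5′ to 3′ on the strand of the gene and end at the base before the start, with the CArG box, TGACGTCA, TGACG and TATAAA, in either orientation, in capitals.
Btg2, chr1:134079156-134079405, minus strand: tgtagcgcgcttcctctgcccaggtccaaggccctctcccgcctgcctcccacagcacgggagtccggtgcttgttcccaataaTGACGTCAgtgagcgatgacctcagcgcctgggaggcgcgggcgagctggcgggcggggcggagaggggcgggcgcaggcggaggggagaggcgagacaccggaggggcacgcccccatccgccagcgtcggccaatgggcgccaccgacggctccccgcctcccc
Egr2, chr10:67537619-67537868, plus strand: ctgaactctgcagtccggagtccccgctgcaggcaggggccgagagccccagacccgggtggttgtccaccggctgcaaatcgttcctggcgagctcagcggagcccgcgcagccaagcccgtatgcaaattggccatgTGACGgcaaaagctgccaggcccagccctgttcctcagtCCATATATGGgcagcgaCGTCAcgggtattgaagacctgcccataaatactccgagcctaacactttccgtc
Nr4a1, chr15:101266596-101266845, plus strand: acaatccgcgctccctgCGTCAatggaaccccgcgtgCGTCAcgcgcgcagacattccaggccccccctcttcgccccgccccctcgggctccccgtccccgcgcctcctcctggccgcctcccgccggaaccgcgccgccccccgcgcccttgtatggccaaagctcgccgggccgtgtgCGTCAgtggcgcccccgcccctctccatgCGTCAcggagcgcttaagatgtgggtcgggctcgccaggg
Nr4a2, chr2:57124004-57124253, minus strand: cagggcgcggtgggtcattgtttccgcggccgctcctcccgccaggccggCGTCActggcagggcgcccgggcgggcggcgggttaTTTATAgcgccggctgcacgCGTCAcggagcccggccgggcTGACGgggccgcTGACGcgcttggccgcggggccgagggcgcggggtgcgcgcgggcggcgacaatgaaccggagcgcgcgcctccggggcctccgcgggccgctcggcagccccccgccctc

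**Figure D2:**
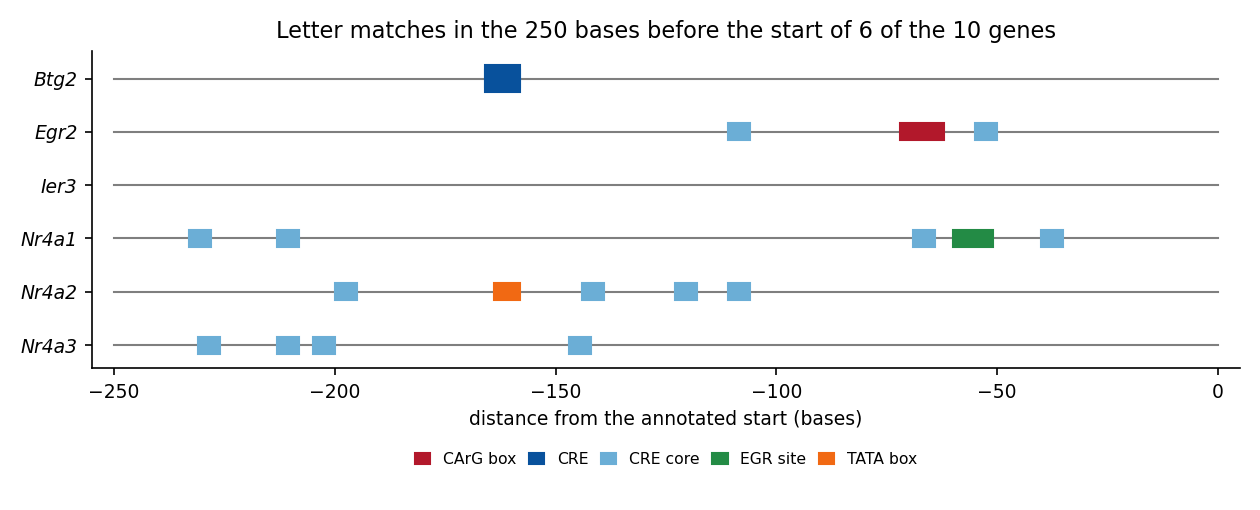
Positions of matches to the motifs of the key in the 250 bases before the annotated start of 6 of the 10 genes (for Egr2, the window shown above), by distance from the start in bases. CRE is the cAMP response element and CRE core its first 5 letters, on either strand. Nr4a1, Nr4a2 and Nr4a3 each hold 4 CRE cores, Btg2 the full element between 166 and 159 bases before the start, and Egr2 a CArG box between 72 and 63 bases before the start with a core on each side.

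Egr1, the best known immediate early transcription factor of injured tissue, is listed as ENSMUSG00000038418 and spans 34859823 to 34864984 on the plus strand of chromosome 18 of GRCm38. METTL3-HKD livers 1 to 4 held 27.6, 21.6, 12.95 and 17.7 FPKM, and METTL3-Flox livers 1 to 4 held 2.95, 3.28, 1.97 and 2.76 FPKM. The lowest METTL3-HKD liver was 3.94 times the highest METTL3-Flox liver, and the METTL3-Flox livers lay within a narrow range. The ratio of the means was 7.29, with a log2 fold change of 2.79 (standard error 0.236, limma adjusted p = 0.00112). Egr1 had the smallest adjusted p of the 10, and it rested on at least 134 reads in every liver.

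Egr2 and Egr3, relatives of Egr1 known from nerve and lymphocyte biology, were near the limit of detection in METTL3-Flox mice. Egr2 (ENSMUSG00000037868, chromosome 10, 67535475 to 67542188, plus strand) reached 1.61, 1.32, 0.407 and 0.776 FPKM in METTL3-HKD livers 1 to 4, while METTL3-Flox livers 1 to 4 held 0.0621, 0.127, 0.0581 and 0.0366 FPKM. METTL3-HKD livers 1 and 2 were the high ones, and METTL3-Flox livers held 2 to 7 reads of the gene each. Over all livers of a group, 267 reads stood against 15, a ratio of 14.6 after scaling for library size (95% interval 8.69 to 26.4). Egr3 (ENSMUSG00000033730, chromosome 14, 70077203 to 70082614, plus strand) reached 0.440, 0.344, 0.264 and 0.281 FPKM in METTL3-HKD livers 1 to 4, while METTL3-Flox livers 2 and 3 held 0.0140 and 0.0299 FPKM. It is listed at 0 in METTL3-Flox livers 1 and 4, where 3 reads, the limit that a count of 0 allows, would have been 0.0479 and 0.0423 FPKM. With 111 reads against 3, the ratio was 30.3 (95% interval 10.1 to 149). Such intervals cover counting error only and leave out the spread between mice. The log2 fold changes of 2.60 for Egr2 (standard error 0.389, limma adjusted p = 0.00595) and 1.95 for Egr3 (standard error 0.284, limma adjusted p = 0.00540) understate these ratios, since 0.1 FPKM was added to every value. With voom on whole reads rebuilt from the FPKM they were 3.64 and 4.52, and with 1 FPKM added they were 0.88 and 0.40, under the fold threshold.

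Among the Nr4a receptors, Nr4a1 was the most abundant in both groups. Nr4a1 (ENSMUSG00000023034, chromosome 15, 101254269 to 101274795, plus strand), also called Nur77, reached 5.26, 4.61, 1.53 and 2.64 FPKM in METTL3-HKD livers 1 to 4, while METTL3-Flox livers 1 to 4 held 0.381, 0.635, 0.844 and 0.425 FPKM. METTL3-HKD liver 3 came nearest to the other group, at 1.81 times the METTL3-Flox liver of the same number, which was the highest there. The log2 fold change was 2.33 (standard error 0.384, limma adjusted p = 0.00821) and the ratio of the means 6.14. Nr4a3 (ENSMUSG00000028341, chromosome 4, 48045153 to 48086447, plus strand), known as Nor1, reached 1.05, 0.569, 0.305 and 0.863 FPKM in METTL3-HKD livers 1 to 4, while METTL3-Flox livers 1 to 4 held 0.0118, 0.0620, 0.0220 and 0.0104 FPKM. The METTL3-Flox values stand for 1 to 6 reads per liver, and the METTL3-HKD values for 33 to 126. Its ratio over all reads was 26.1 (95% interval 14.0 to 54.9), with a log2 fold change of 2.57 (standard error 0.359, limma adjusted p = 0.00473). That of Nr4a3 was 4.58 with voom and 0.70 with 1 FPKM added, under the fold threshold.

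Nr4a2 (ENSMUSG00000026826, chromosome 2, 57106830 to 57124003, minus strand), known as Nurr1 for its role in dopamine neurons, was the lowest of the 10 genes in METTL3-HKD livers. It reached 0.306, 0.240, 0.123 and 0.265 FPKM in METTL3-HKD livers 1 to 4, while METTL3-Flox livers 1 to 4 held 0.0173, 0.0305, 0.0162 and 0.0612 FPKM. The groups did not overlap, yet the METTL3-HKD livers held only 9 to 25 reads of the gene and the METTL3-Flox livers 1 to 4. The log2 fold change of 1.32 (standard error 0.316, limma adjusted p = 0.0264) came with the largest adjusted p of the 10 genes, and it was 2.67 with voom and 0.26 with 1 FPKM added. The limma adjusted p rose to 0.0814 without METTL3-HKD liver 1, and Nr4a2 was also no longer called without METTL3-HKD liver 2 or 4 or METTL3-Flox liver 2 or 3, with limma adjusted p from 0.0561 to 0.0693.

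**Figure D3:**
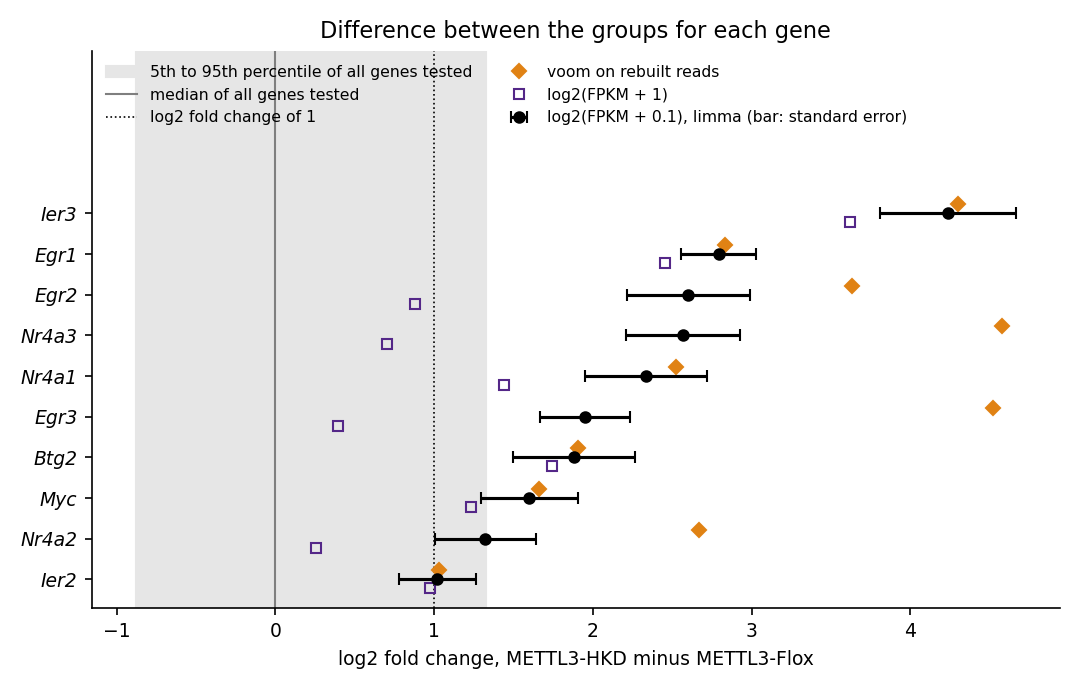
Log2 fold change of each gene, METTL3-HKD minus METTL3-Flox, with its standard error (black), beside voom on rebuilt reads (orange) and 1 FPKM added in place of 0.1 (open squares). The grey band runs from the 5th to the 95th percentile of all genes tested, -0.88 to 1.33. The settings lie closer together for Ier3, Egr1, Btg2, Myc and Ier2, and farther apart for Egr2, Egr3, Nr4a2 and Nr4a3, which had few reads in METTL3-Flox livers.

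Ier3, also called IEX-1, had the largest log2 fold change of the 10 on the log2(FPKM + 0.1) scale. It is listed as ENSMUSG00000003541 on the plus strand of chromosome 17, from 35821684 to 35822923. METTL3-HKD livers 1 to 4 held 54.6, 31.6, 12.9 and 34.5 FPKM, and METTL3-Flox livers 1 to 4 held 1.37, 2.68, 1.16 and 1.10 FPKM. METTL3-HKD liver 3 was the low one of its group and still 4.82 times the highest METTL3-Flox liver. The ratio of the means was 21.2, with a log2 fold change of 4.24 (standard error 0.427, limma adjusted p = 0.00190). The order depends on the scale, since the ratio over all reads was 21.4 for Ier3 (95% interval 17.7 to 26.1), below those of Egr3 and Nr4a3, whose intervals hold it. With voom the log2 fold change of Ier3 was 4.30, again below those of Egr3 and Nr4a3.

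Ier2 differed least, although it was among the most abundant of the 10 in both groups. It is a gene of a single exon, ENSMUSG00000053560 on the minus strand of chromosome 8 from 84661331 to 84662852. It reached 38.9, 31.4, 19.5 and 26.1 FPKM in METTL3-HKD livers 1 to 4, while METTL3-Flox livers 1 to 4 held 18.1, 14.4, 14.7 and 9.47 FPKM. The groups touched but did not cross, since METTL3-HKD liver 3 was 1.08 times METTL3-Flox liver 1. The ratio of the means was 2.04 and the log2 fold change 1.02 (standard error 0.243, limma adjusted p = 0.0263), just past the fold threshold. Ier2 was no longer called without METTL3-HKD liver 1 or 2, or without METTL3-Flox liver 2, 3 or 4, with limma adjusted p from 0.0555 to 0.0656, and with 1 FPKM added its log2 fold change was 0.97.

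Btg2 (ENSMUSG00000020423, chromosome 1, 134075170 to 134079120, minus strand) reached 45.1, 18.3, 17.6 and 23.7 FPKM in METTL3-HKD livers 1 to 4, while METTL3-Flox livers 1 to 4 held 10.7, 9.02, 4.56 and 4.05 FPKM. METTL3-HKD liver 1 stood well above the other 3, which were close together. The log2 fold change was 1.88 (standard error 0.385, limma adjusted p = 0.0157), and it was 1.59 without that liver. Myc (ENSMUSG00000022346, chromosome 15, 61985391 to 61990374, plus strand) reached 9.06, 5.72, 3.63 and 4.34 FPKM in METTL3-HKD livers 1 to 4, while METTL3-Flox livers 1 to 4 held 2.07, 2.41, 1.36 and 1.21 FPKM. Its groups were 1.50 times apart at their nearest livers, 3 and 2. The log2 fold change of Myc was 1.60 (standard error 0.306, limma adjusted p = 0.0130). The other 8 genes, all but Ier2 and Nr4a2, remained upregulated in each of the 8 fits that left out 1 liver.

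In order of mean FPKM, the METTL3-HKD livers held Ier3 (33.4), Ier2 (29.0), Btg2 (26.2), Egr1 (20.0), Myc (5.68), Nr4a1 (3.51), Egr2 (1.03), Nr4a3 (0.696), Egr3 (0.332) and Nr4a2 (0.234). The ranges of neighbors in this order overlapped, except those of Egr1 and Myc. In METTL3-Flox livers Ier2 came first at 14.2 FPKM and Btg2 second at 7.08 FPKM, while Ier3, at 1.58 FPKM, fell behind Egr1 at 2.74 FPKM and Myc at 1.76 FPKM.

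The 10 genes also varied together among the METTL3-HKD mice. METTL3-HKD liver 1 was the highest of its group in 10 of 10 genes, and liver 3 the lowest in 10 of 10. On the log2(FPKM + 0.1) scale, the mean over the 10 genes deviated from the group mean by 0.63 in liver 1, 0.11 in liver 2, -0.69 in liver 3 and -0.04 in liver 4. Among METTL3-Flox mice no liver led in every gene, with liver 2 highest in 5 genes and liver 4 lowest in 7. The latter count includes Egr3, for which livers 1 and 4 tied at 0. Across the 8 livers, Pearson r between pairs of the 10 genes lay between 0.816 and 0.994 over 45 pairs, with a median of 0.949. These values hold the difference between the groups. After each group mean was taken out, r lay between 0.226 and 0.939 with a median of 0.683, all 45 above 0, and in the METTL3-Flox livers alone 31 of 45 were above 0. The genes of a pair share their library in each liver, and with 4 livers a group these are descriptions only.

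**Figure D4:**
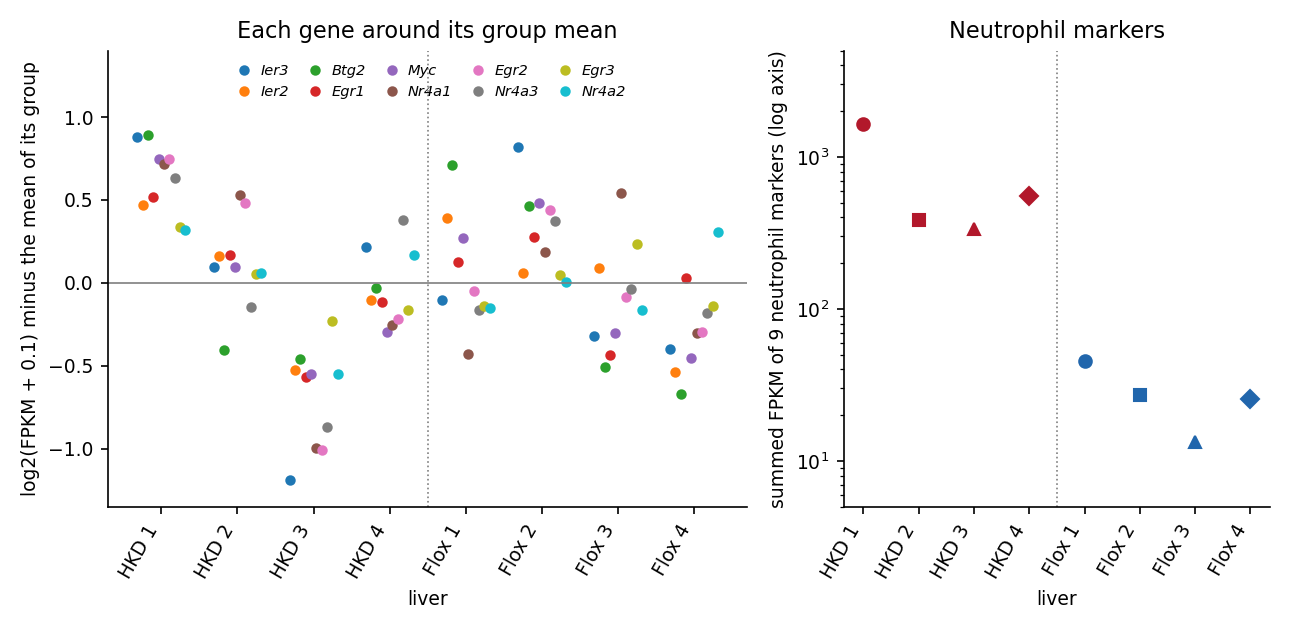
Left, log2(FPKM + 0.1) of each of the 10 genes minus the mean of its group, for each liver. All 10 genes are above 0 in METTL3-HKD liver 1 and below 0 in METTL3-HKD liver 3. Right, the summed FPKM of 9 neutrophil markers in the same livers (log axis), 338 to 1647 in METTL3-HKD and 13.3 to 45.6 in METTL3-Flox livers.

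Most markers of cells that enter injured liver moved with the same groups. All 9 neutrophil markers were upregulated (median log2 fold change 3.83), and METTL3-HKD livers 1 to 4 held 1647, 387, 338 and 558 FPKM of them in sum, against 13.3 to 45.6 FPKM in METTL3-Flox livers. Within the METTL3-HKD group, the liver highest in all 10 genes was also the highest in neutrophil markers, and the liver lowest in all 10 genes was the lowest. This was not particular to neutrophil markers. The sums of the monocyte and cholangiocyte markers had the same highest and lowest liver, as had those of the AP-1 factors and other immediate early genes described below. So had the sums of the Myc network, of the Myc targets and of the factors that bind immediate early promoters, although none of these factors was called. The sums of the other marker groups did not. Ly6g, which defines neutrophils, is listed at 0 in 3 of 4 METTL3-Flox livers and in 0 of 4 METTL3-HKD livers. Of 5 monocyte markers 3 were upregulated, with sums of 31.8 to 115 FPKM against 11.7 to 24.1 FPKM. Chil3 had the highest mean of them in METTL3-HKD livers, 37.2 FPKM against 1.93 FPKM in METTL3-Flox livers. Ly6c2 and Plac8 were not called, and their groups overlapped (limma adjusted p = 0.229 and 0.930). Of 6 cholangiocyte markers 5 were upregulated, with sums of 119 to 369 FPKM against 52.5 to 77.7 FPKM, and 3 without METTL3-HKD liver 1 or 2 or METTL3-Flox liver 2, 3 or 4. Most of these sums was Spp1, with a mean of 208 FPKM in METTL3-HKD and 60.3 FPKM in METTL3-Flox livers. Of 10 Kupffer cell and macrophage markers 3 were downregulated, Clec4f, Timd4 and Cd5l, with sums of 140 to 282 FPKM against 277 to 662 FPKM, and 0 without METTL3-HKD liver 3 or 4, without METTL3-Flox liver 1, 3 or 4, or after scaling to the reads on genes. Of 7 stellate cell markers 1 was upregulated, Des, and 1 downregulated, Colec11, and among the fits that left out 1 liver Des was called only without METTL3-HKD liver 2 or 4. None of 8 endothelial, 10 hepatocyte and 3 tested lymphocyte markers was called at these thresholds by limma or with voom, while 2, 2 and 0 of them had an unadjusted p under 0.05. The hepatocyte markers lay on the low side, with 0 of 10 log2 fold changes above 0 and a median of -0.42 (-0.21 after scaling to the reads on genes). Hnf4a, a master factor of hepatocytes, and F2, prothrombin, were lower by adjusted p alone, with log2 fold changes of -0.48 and -0.54 (limma adjusted p = 0.0187 and 0.0323). Of the endothelial markers Dnase1l3 was lower by adjusted p alone, with a log2 fold change of -0.78 (limma adjusted p = 0.00357). These 3 were named after their values were seen. Immune cells, bile duct cells and hepatocytes can all express the 10 genes, and in bulk tissue more cells of a type and more RNA per cell cannot be told apart. The part of these cells in the difference was not tested.

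The genes around the 10 were then read by role. The factors that bind immediate early promoters were not called in either direction. None of 8, namely serum response factor, its Ets and actin-regulated partners and the CREB arm, passed both thresholds in limma or with voom, while 3 had an unadjusted p under 0.05 and their median log2 fold change was 0.09. Srf was at 10.6 ± 2.43 FPKM in METTL3-HKD and 6.98 ± 0.861 FPKM in METTL3-Flox livers (SD, n = 4 each), a log2 fold change of 0.58 under the fold threshold (limma adjusted p = 0.0440). Crtc2, a coactivator of CREB, was at 5.80 ± 0.442 against 5.57 ± 0.367 FPKM (SD, n = 4 each).

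The AP-1 factors, which are immediate early genes themselves, were mostly upregulated too. Of 9 tested, 8 were upregulated, with a median log2 fold change of 2.48, and 7 or 8 when 1 liver was left out. Fosl1 had 9.35 ± 4.94 against 0.204 ± 0.108 FPKM (SD, n = 4 each), a log2 fold change of 4.85. Atf3, a factor of stressed cells, had a log2 fold change of 4.50, and that of Maff, a small Maf protein, was 4.06. Jund was the exception, at 29.5 ± 3.67 against 17.3 ± 5.48 FPKM (SD, n = 4 each), a log2 fold change of 0.80, which passed the fold threshold only after scaling to the reads on genes.

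Not every immediate early gene passed. Of a further 36, 35 were tested, 15 were upregulated and 0 downregulated (1 lower by limma adjusted p alone, Irf1, named after its value was seen, log2 fold change -0.44), with a median log2 fold change of 0.81. The number upregulated was 11 to 18 when 1 liver was left out. Klf6, a zinc finger factor of the injured liver, had 22.2 ± 7.07 against 2.71 ± 0.473 FPKM (SD, n = 4 each), a log2 fold change of 2.94. Cyr61, a matrix protein driven by YAP and serum response factor, had a log2 fold change of 2.90, and that of the stress gene Gadd45b was 2.24. The abundant Errfi1, a feedback inhibitor of the EGF receptor, was at 287 ± 61.9 FPKM in METTL3-HKD and 346 ± 42.7 FPKM in METTL3-Flox livers (SD, n = 4 each) (limma adjusted p = 0.305). The survival gene Mcl1 was at 77.1 ± 29.2 against 41.9 ± 5.49 FPKM (SD, n = 4 each) and missed the threshold (limma adjusted p = 0.0563).

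Paralogs of the 10 mostly did not pass. Of 6 tested, only Btg1 was upregulated, at 29.0 ± 9.64 against 9.99 ± 2.68 FPKM (SD, n = 4 each), a log2 fold change of 1.50 (limma adjusted p = 0.0113). The antiproliferative relatives Tob1 and Tob2 had log2 fold changes of -0.22 and -0.30 without passing, and the signs of the paralogs' median differed between the deposited scaling (-0.10) and scaling to the reads on genes (0.10). Egr4 is listed at 0 in all 8 livers. The Egr corepressors Nab1 and Nab2, which bind Egr proteins and are themselves Egr targets, had log2 fold changes of 0.29 and 0.07, and neither was called (limma adjusted p = 0.0853 and 0.825).

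Of 9 genes listed here as Egr1 targets, 5 were upregulated, with a median log2 fold change of 1.23. Like the other lists, this one was chosen with earlier results of these data known, so the count is a description only. The cytokine Lif had 2.70 ± 1.24 against 0.0265 ± 0.0335 FPKM (SD, n = 4 each), and the adhesion receptor Cd44 had a log2 fold change of 1.69. Vegfa, at 20.6 ± 3.04 against 20.0 ± 3.56 FPKM (SD, n = 4 each), and Icam1, with a log2 fold change of 0.45, did not pass. Without METTL3-HKD liver 1, and likewise without liver 2, the number upregulated was 3.

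The partners and liver targets of the Nr4a receptors were not among the upregulated genes. None of 8 retinoid X receptors and gluconeogenic genes was called in either direction by limma or with voom, 1 had an unadjusted p under 0.05, and their median log2 fold change was -0.41. Pck1, the rate-limiting enzyme of gluconeogenesis, was at 538 ± 118 FPKM in METTL3-HKD and 716 ± 168 FPKM in METTL3-Flox livers (SD, n = 4 each) (limma adjusted p = 0.254). Fbp1, a later enzyme of that pathway, was at 423 ± 135 against 569 ± 176 FPKM (SD, n = 4 each) (limma adjusted p = 0.348). Rxra, named after its value was seen, had a log2 fold change of -0.45 (limma adjusted p = 0.0263).

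Of the 10 genes of the Myc network, 1 was upregulated and 1 downregulated. Mxd1, which replaces Myc on Max and represses its targets, had 8.58 ± 5.58 against 1.18 ± 0.162 FPKM (SD, n = 4 each), a log2 fold change of 2.59 (limma adjusted p = 0.00419). Mlxipl, the glucose-sensing factor ChREBP, fell by 1.03 on the log2 scale (limma adjusted p = 0.0151), and missed the fold threshold without METTL3-HKD liver 1, without METTL3-Flox liver 2 or 3, after scaling to the reads on genes and with 1 FPKM added. Mlx, the partner of Mlxipl, was at 15.8 ± 1.74 against 14.9 ± 2.14 FPKM (SD, n = 4 each). Of 15 nucleolar and growth genes known as Myc targets, 15 had a log2 fold change above 0 (median 0.57), 9 were higher by adjusted p alone, as were 9.05% of all tested genes, and 4 were upregulated. Nop56, a core protein of small nucleolar RNA complexes, had a log2 fold change of 1.46, its partner Nop58 had 1.26, and Odc1, the first enzyme of polyamine synthesis, had 1.38. Npm1, the most abundant nucleolar protein gene named here, was at 47.5 ± 6.54 against 32.9 ± 1.35 FPKM (SD, n = 4 each), a log2 fold change of 0.52 under the fold threshold.

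**Figure D5:**
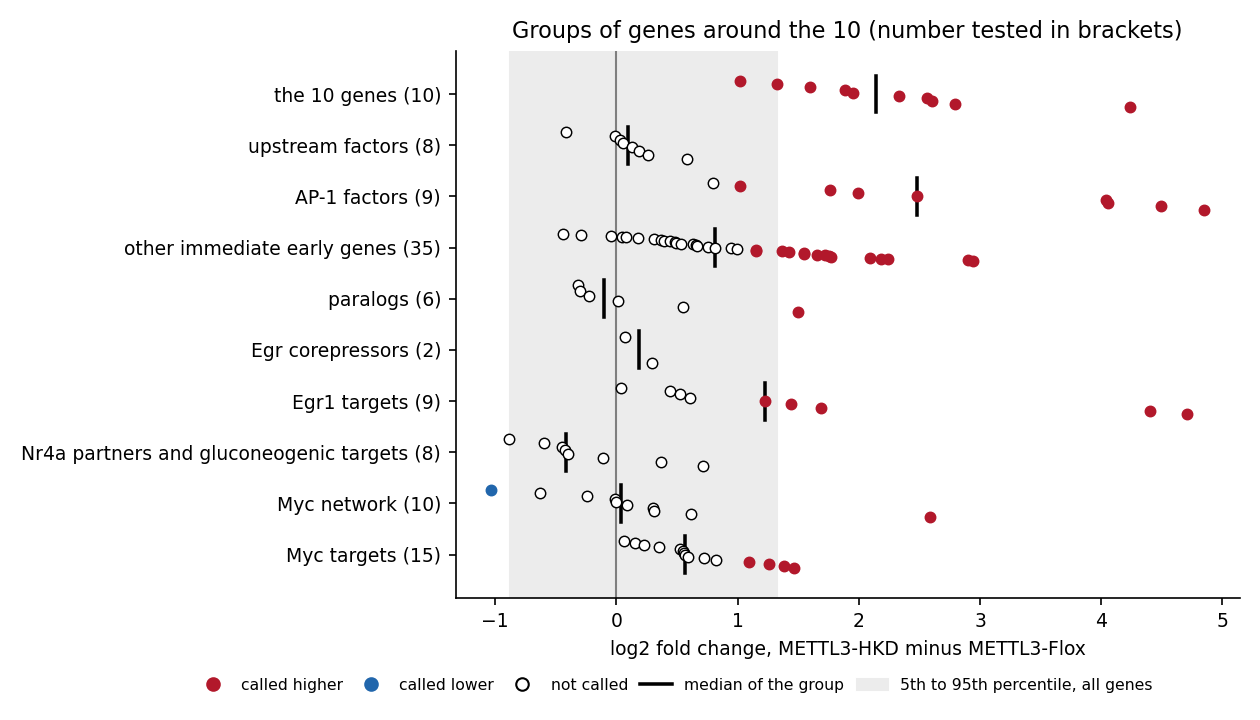
Log2 fold change, METTL3-HKD minus METTL3-Flox, of the 10 genes and of every tested gene in 9 groups around them, with the median of each group as a bar and the 5th to 95th percentile of all genes in grey. Red and blue points passed both thresholds. The AP-1 factors (median 2.48) lie with the 10 genes (median 2.14), and the upstream factors (median 0.09) lie near the median of all genes.

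The genes whose pattern over the 8 livers was most like that of the 10 were chosen by Pearson r with the mean of their scaled log2 values. Among the first 6 were Mefv, which encodes the inflammasome protein pyrin (r = 0.997), Il1b, the cytokine interleukin-1β (0.994), Slc2a1, the glucose transporter GLUT1 (0.994), Olr1, the receptor LOX-1 for oxidized lipoprotein (0.993), and Fst, the activin inhibitor follistatin (0.993). Il1b was at 34.1 ± 25.3 FPKM in METTL3-HKD and 1.83 ± 0.694 FPKM in METTL3-Flox livers (SD, n = 4 each). Slc2a1 was at 18.0 ± 6.65 against 3.56 ± 0.875 FPKM (SD, n = 4 each). Such values are common when groups lie this far apart, and 1006 of 16635 other genes had an r of at least 0.9.

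Most of the 10 genes were short. Immediate early genes are known to be compact, and in the longest coding transcript of each gene in GENCODE M21 they had a median of 2 exons against 9 over 13104 tested coding genes. The median gene span was 5287 bases against 22738 bases. The Nr4a genes were less compact than the rest of the 10, with 8 exons each. Their spans were 20527 bases for Nr4a1, 17174 for Nr4a2 and 41295 for Nr4a3, of which only that of Nr4a3 was above the median of all genes. The pentamer ATTTA in the 3′ UTR, which occurs in unstable transcripts, was found at least once in 9 of 10 against 67.9% of 12993 genes, and at least 3 times in 7 of 10 against 36.6%. Ier2 was the gene without it, and Egr3 had the most, 7 copies in 2645 bases. The pentamer GGACT, a sequence in which METTL3 can methylate adenosine, was found at a median of 1.34 per kb of transcript against 1.05. Its median number of copies per transcript was 3 against 3. Single genes ran from 0.28 per kb for Nr4a2 to 3.29 for Ier2. Only Egr1 (1.12) and Egr2 (0.67) lay within the middle range of all genes, from 0.64 to 1.53, and the others lay on both sides of it. The wider METTL3 consensus DRACH (D is A, G or T, R is A or G, H is A, C or T) did not differ in this way. Its median was 20.3 per kb in the 10 genes against 20.2 over all genes. No gene of the 10 overlaps another annotated gene. These letter counts are descriptions of the annotation, and methylation was not measured in these libraries.

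Set beside the promoter windows, the 3 Nr4a genes, which hold 4 TGACG cores each, had log2 fold changes of 1.32 to 2.57, and Ier3, whose window holds neither a core nor a CArG box, had 4.24 (4.58 for Nr4a3 and 4.30 for Ier3 with voom). Btg2, with the full element, had 1.88, and Egr2, with a CArG box between cores, had 2.60. With 6 genes, no relation between these letters and the size of the change can be read.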

How the data were processed

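RNA of whole liver from 4 METTL3-HKD and 4 METTL3-Flox mice was sequenced from libraries of a SMARTer mRNA kit, and groups follow the sample titles. The authors deposited FPKM for 54532 genes with the gene length used. The submitters' processing notes name GRCm38 and mm10, while the aligner, counter, annotation and strand setting are not given in the sources used here. FPKM times gene length fell on whole multiples of the value of 1 read (tolerance 0.05) for 100% of the non-zero values, which gave whole reads and the depth. The effective library size was 1.0082 to 1.167 times the reads on genes in METTL3-HKD livers and 0.840 to 1.0081 times in METTL3-Flox livers. A scaling between libraries is therefore part of the deposited values, and it was larger in every METTL3-HKD liver than in any METTL3-Flox liver.

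The 16645 genes whose mean reached 0.1 FPKM were compared between the groups as log2(FPKM + 0.1). The test was that of limma 3.58.1 in R 4.3.3 (lmFit, then eBayes with its trend on the mean level), two-sided, with Benjamini-Hochberg adjustment over all of them. A gene was called at an adjusted p below 0.05 with a change of 1 or more on the log2 scale in either direction, the thresholds of the study. Single genes were also compared by an exact permutation test of mean FPKM (scipy 1.17.1, Python 3.11.15). Intervals of read ratios are exact binomial intervals at 95%. Promoter windows are from RefSeq (GRCm38.p6), and transcripts and coordinates from GENCODE M21. The fit was tested on simulated data.

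The 10 genes and the lists were chosen with earlier results of these data known. Named beside the 10 are Mettl3, from each list up to 3 genes called higher and up to 3 called lower by size of change and up to 2 not called with the highest mean FPKM, and the 6 most alike genes. Of the genes this rule names, 2 are not reported here. Markers are given as counts and sums, by their defining genes. Alternatives were voom on rebuilt reads, scaling to the reads on genes, a replicate block, no trend in eBayes, 1 FPKM as the pseudocount, 1 FPKM or none as the minimum, and fits that left out each liver in turn.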

Additional observations from a re-analysis of the deposited data

Results flagged for a closer look

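Ier3 in METTL3-Flox liver 2 stood apart from the rest of its group. It was at 2.68 FPKM, and the other 3 METTL3-Flox livers lay between 1.10 and 1.37 FPKM. The gap to the nearest liver, as a share of the range of the group, was 0.8292, which passed Dixon's critical value for 4 samples at 95% by less than 0.001. Of 22 groups of 4 livers tested in this way, this was the only such case, and chance gives about 1 in 20. Ier3 rested on 49 reads in that liver and on 20 to 22 reads in the other 3. Without METTL3-Flox liver 2 the log2 fold change of Ier3 was 4.51 (limma adjusted p = 0.00456).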

How the results depend on the processing

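Of 146 recomputed calls of the 10 genes under 15 alternatives, 130 kept the call, 16 lost it and 0 changed direction. With a pseudocount of 1 FPKM 5 of the 10 genes were called, since Egr2, Egr3, Nr4a2, Nr4a3 and Ier2 fell under the fold threshold while their adjusted p stayed under 0.05. With a minimum mean of 1 FPKM 6 were called, which are all that were then tested. Leaving out 1 liver gave 8 to 10 called genes, with 8 without METTL3-HKD liver 1 or 2 or METTL3-Flox liver 2 or 3. Among all genes, the number upregulated (782) was 317 with a pseudocount of 1 FPKM, 450 with a minimum mean of 1 FPKM and 1044 after scaling to the reads on genes. It ran from 492 (without METTL3-HKD liver 1) to 960 when 1 liver was left out. The number downregulated (253) was 88 with a pseudocount of 1 FPKM, 163 with no minimum and 133 after scaling to the reads on genes, and ran from 94 to 341 when 1 liver was left out, with 121 when METTL3-HKD liver 1 was omitted and 155, 94 and 166 when METTL3-Flox liver 2, 3 or 4 was. The causes of these shifts were not tested. The groups share replicate numbers, and deviations of livers with the same number correlated at 0.071, -0.084, -0.013 and -0.034. With so few livers, these values cannot tell whether livers of the same number share a litter, a day or a batch. With the replicate block 9 of the 10 genes were called (Nr4a2 was lost, adjusted p = 0.0678), 15 of the other immediate early genes, and 616 genes upregulated and 200 downregulated among all. In 1 of 4 numbers the METTL3-HKD liver correlated best with the METTL3-Flox liver of its own number. Depth limits Egr2, Egr3, Nr4a2 and Nr4a3, for which METTL3-Flox livers held 0 to 7 reads each.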
